A study of Mus musculus with 4 samples.

Results

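Cathepsins are the main proteases of the lysosome, and cystatins are the small proteins that block them. Described here are 7 cathepsin genes (Ctsa, Ctsb, Ctsd, Ctsh, Ctsl, Ctss and Ctsz) and 3 cystatin genes (Cst3, Cstb and Cst7) in the cortex of a mouse model of Alzheimer's disease. They were found by their symbols, as 10 of the 18030 features (genes, or transcripts with no gene match) with counts, from 19 of 37539 deposited transcripts. The genes were chosen with the difference between transgenic and wild type mice in these same libraries already known. Their fold changes and calls are therefore given as descriptions, with no p-value.

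The samples were cortex of 2 APPswe/PS1ΔE9 mice (APP) and of 2 wild type mice (WT), all male, 12 months old and labelled as C57BL/6 in background, with 1 library per mouse. The study's methods name the WT mice as C57BL/6J. APP mice carry a human APP gene with the Swedish mutations and a human PS1 gene that lacks exon 9, both driven by the prion protein promoter, and WT mice carry neither. Total RNA was depleted of ribosomal RNA, sequenced with a strand-specific protocol, and counted on Ensembl mouse transcripts. The libraries, named APP-3, APP-4, WT-1 and WT-2 as in the deposited table, held between 28525117 and 43881196 counts.

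Levels are given as CPM, the counts scaled to a common library total that was adjusted by the TMM method. Fold changes are log2 of APP over WT. A feature is called where the adjusted p of edgeR's quasi-likelihood test after adjustment by Benjamini-Hochberg is under 0.05 and the fold change is at least 1.5. By this rule 161 features were called, 154 higher and 7 lower in APP, and the median log2 fold change of all features was 0.00. All 10 markers of cortical neurons were counted in every library, with a summed level between 3737 and 4633 CPM, and their median log2 fold change was -0.11. Each library stands for 1 mouse, so standard errors and p-values rest on the spread between 2 libraries per group, which may be partly technical. The test shares information on this spread among all features, so the standard error of a gene does not reflect its own libraries alone.

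Lysosomal cathepsins are made as inactive precursors, carried to the lysosome mainly by mannose 6-phosphate receptors, and activated there by cleavage at acidic pH. Ctsb, Ctsh, Ctsl, Ctss and Ctsz encode cysteine proteases, Ctsd the main aspartic protease of the lysosome, and Ctsa a serine carboxypeptidase that also protects the enzymes of the Glb1 and Neu1 genes. Cystatins inhibit cysteine proteases and not Ctsd or Ctsa. Cystatin C (Cst3) is secreted and abundant in brain, cystatin B (Cstb) stays in the cytosol, and cystatin F (Cst7) is made by immune cells and can act inside lysosomes. In brain, Ctss is a gene typical of microglia, and Cst7 is known as a marker of the microglia found around amyloid plaques.

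All 10 genes had a higher level in both APP libraries than in either WT library. Over all features 21.5% had this order of the libraries, and nothing is read from the difference, because the genes were selected on this comparison. Of the 10 genes, 5 were called higher (Cst7, Ctsd, Ctsz, Ctss and Ctsh), against 0.854% of all features. By the adjusted p alone the number was 7, with Cst3 and Ctsa added, against 1.04% of all features. All 10 had at least 10 counts over the libraries, and Cst7 was the 1 gene with fewer than 10 in a library.

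**Figure D1:**
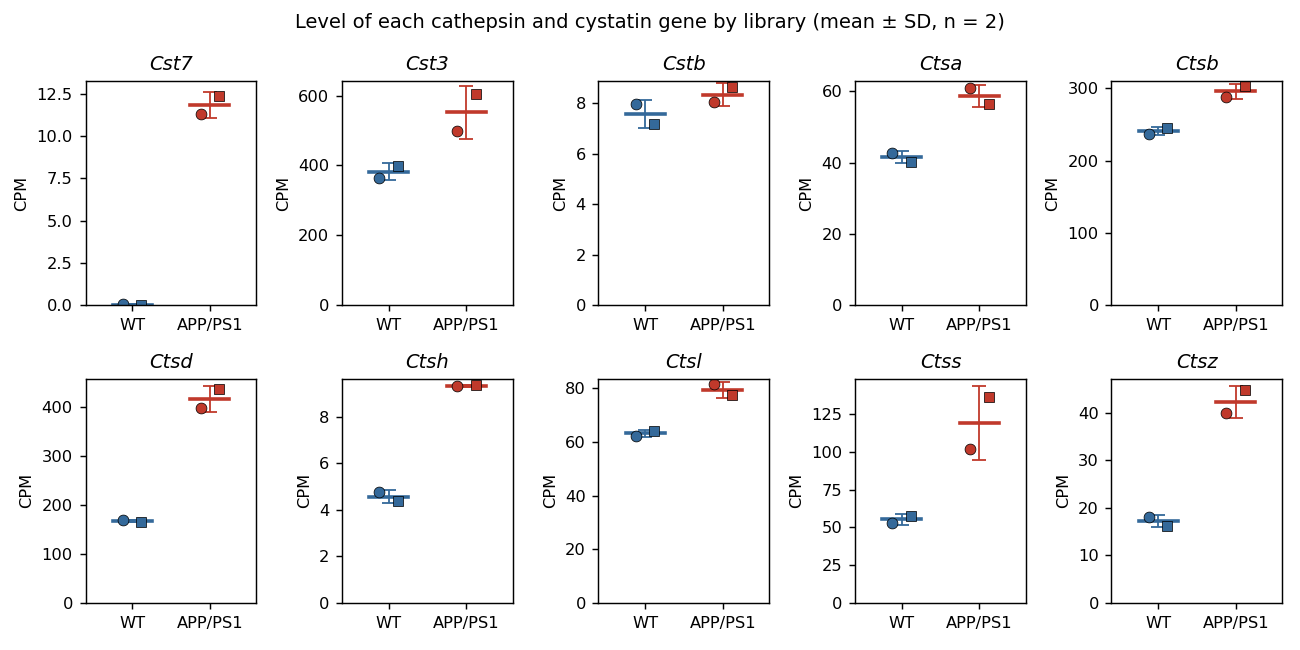
Level of each gene in CPM, on a separate linear axis from 0 for each gene, with WT in blue and APP in red. Circles are WT-1 and APP-3, squares are WT-2 and APP-4, bars are means and error bars are SDs (n = 2). Both APP points lie above both WT points in each panel, by the smallest margin for Cstb.

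On GRCm38 all 10 are protein-coding genes, and 4 of them lie on chromosome 2. These are Cst3 (148871722 to 148875692, minus strand), Cst7 (150570415 to 150578944, plus), Ctsa (164832873 to 164841032, plus) and Ctsz (174427493 to 174439039, minus). Ctss lies on chromosome 3 (95526786 to 95556403, plus), Ctsd on chromosome 7 (142375911 to 142388038, minus) and Ctsh on chromosome 9 (90054152 to 90076089, plus). Cstb lies on chromosome 10 (78425669 to 78427622, plus), Ctsl on chromosome 13 (64359337 to 64370890, minus) and Ctsb on chromosome 14 (63122462 to 63145923, plus).

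Of the inhibitors, Cst7 was close to absent in WT. APP-3 held 328 and APP-4 384 of its counts, against 2 in WT-1 and 0 in WT-2. In CPM this was 11.3 and 12.4 in APP. With each WT library set to 3 counts, above its own count, Cst7 was 155-fold higher in APP. This setting covers counting error at most, lies close to the 2 counts of WT-1 and is no confidence limit. The fold was 148 without APP-4 and 162 without APP-3. The gene had 1 transcript in the file and shares 0% of its 31-base words with transcripts of other genes.

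Cst3 was the most abundant of the 10 genes. Its level was 497 CPM in APP-3 and 606 in APP-4, against 364 in WT-1 and 399 in WT-2. The groups did not overlap, but the APP libraries lay apart by a factor of 1.22. The means were 552 ± 76.5 for APP and 382 ± 24.6 CPM for WT (SD, n = 2), giving log2 fold change 0.53 ± 0.10 (SE), which is under the fold cut-off. Without APP-3 it was 0.67 and passed. Cstb had 8.03 and 8.66 CPM in APP-3 and APP-4 and 7.97 and 7.17 in WT-1 and WT-2. The lowest APP value and the highest WT value of Cstb were almost the same, and its log2 fold change of 0.14 (standard error 0.13) was about the size of its error.

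Among the proteases, Ctsd and Ctsz differed most. Ctsd had 396 CPM in APP-3 and 435 in APP-4, against 169 in WT-1 and 166 in WT-2. The WT libraries lay within 1.02-fold of each other and the groups were well apart. The mean rose 2.48-fold, from 167 ± 2.27 CPM in WT to 416 ± 27.2 in APP (SD, n = 2), with log2 fold change 1.31 ± 0.07 (SE). Ctsz, a carboxypeptidase among the cysteine cathepsins, had 40.0 and 44.7 CPM in APP-3 and APP-4 and 18.1 and 16.3 in WT-1 and WT-2. Its rise of 2.47-fold, giving log2 fold change 1.30 ± 0.09 (SE), was about that of Ctsd.

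Ctss, an endopeptidase that stays active at neutral pH and trims the invariant chain in antigen-presenting cells, had 102 CPM in APP-3 and 137 in APP-4, against 52.9 in WT-1 and 57.8 in WT-2. It rose 2.16-fold, with log2 fold change 1.11 ± 0.13 (SE), and APP-4 was 1.34 times as high as APP-3. On the log2 scale this gap is 0.42, more than the median gap between the APP libraries of 0.13 over 14531 genes and less than their 95th percentile of 0.58. Cst3 had the next largest gap of the genes with counts in every library, 0.28, also with APP-4 higher. The summed level of 17 microglial markers went the same way, with 536 CPM in APP-3 and 635 in APP-4. So did that of 9 astrocyte markers, with 4829 and 5254 CPM. The sums of oligodendrocyte, endothelial and cortical neuron markers went the other way, as did the levels of Ctsa and Ctsl. The part of any cell type in these gaps was not tested. Ctsh, an aminopeptidase, was the least abundant protease and had 9.30 and 9.37 CPM in APP against 4.76 and 4.37 in WT. Its libraries were close within each group, and it rose 2.05-fold, giving log2 fold change 1.03 ± 0.14 (SE). This call was lost without WT-2, where the log2 fold change was 0.98.

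The other proteases had smaller differences, with the libraries of a group close together. Ctsb, the cysteine cathepsin with the highest CPM, had 288 and 303 CPM in APP-3 and APP-4 and 237 and 245 in WT-1 and WT-2, giving log2 fold change 0.30 ± 0.06 (SE). Ctsl had 81.6 and 77.4 CPM in APP and 62.2 and 64.2 in WT, giving log2 fold change 0.33 ± 0.07 (SE). Ctsa had 60.9 and 56.5 CPM in APP and 42.7 and 40.3 in WT, giving log2 fold change 0.50 ± 0.07 (SE). Of these, Ctsa alone passed the adjusted p, and none reached a fold of 1.5.

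Sequence upstream of the transcription start is shown for the 4 called genes with an entry in the RefSeq promoter table (GRCm38.p6), so that the starts of Cst7, Ctsd, Ctss and Ctsz can be compared. Each line ends 20 bases past the most upstream start of the gene in that table or in GENCODE M21, with the motif matches described in the next paragraph in capitals. The starts are the same in both for Cst7, Ctss and Ctsz. For Ctsd the start in the table lies 211 bases inside the gene in GENCODE M21, so its line holds only the first 59 bases of the window.
Cst7 (chr2:150570165-150570434, plus strand): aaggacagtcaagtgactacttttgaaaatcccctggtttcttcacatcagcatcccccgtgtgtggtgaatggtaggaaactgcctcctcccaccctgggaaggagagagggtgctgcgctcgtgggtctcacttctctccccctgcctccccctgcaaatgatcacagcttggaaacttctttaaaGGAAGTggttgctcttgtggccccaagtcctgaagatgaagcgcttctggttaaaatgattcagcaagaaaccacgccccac
Ctsd (chr7:142388019-142388077, minus strand): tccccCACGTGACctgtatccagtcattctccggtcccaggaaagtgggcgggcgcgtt
Ctss (chr3:95526536-95526805, plus strand): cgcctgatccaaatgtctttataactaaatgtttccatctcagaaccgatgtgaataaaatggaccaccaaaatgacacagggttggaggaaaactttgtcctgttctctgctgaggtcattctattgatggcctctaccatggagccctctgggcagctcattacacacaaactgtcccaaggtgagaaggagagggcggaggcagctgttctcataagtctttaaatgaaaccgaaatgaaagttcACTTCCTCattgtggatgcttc
Ctsz (chr2:174439020-174439289, minus strand): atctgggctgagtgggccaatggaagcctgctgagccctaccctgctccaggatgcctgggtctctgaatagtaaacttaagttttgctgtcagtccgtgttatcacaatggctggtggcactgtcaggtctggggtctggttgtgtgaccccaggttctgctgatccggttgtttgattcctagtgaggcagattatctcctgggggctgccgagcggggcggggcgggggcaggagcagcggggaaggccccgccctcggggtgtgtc

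The table held 8 windows of 300 bases for 7 of the 10 genes, and Ctsb, Ctsh and Cstb had no entry. Both strands were searched for 4 motifs. The E-box CACGTG stood in a window of Ctsa, Ctsd and Ctsl and in 7.15% of all 32851 promoters. The longer GTCACGTG, which contains the E-box and is part of the motif bound by the lysosomal regulator TFEB, stood in windows of Ctsa and Ctsd and in 2.25% of all promoters. Ctsd held it at 2 places, 245 and 98 bases before the start in the table, both as CACGTGAC on the other strand. The former is in the printed line, and the latter lies within the first exon of Ctsd-202 in GENCODE M21. The windows of Cst3 and Ctsl and the Ctsa window with the motifs likewise have starts 180, 370 and 900 bases inside their genes in GENCODE M21. The ETS core GGAAGT stood in windows of Cst7, Ctsa and Ctss and in 23.8% of all promoters, and in Cst7 it lies 62 bases before the start. The longer GAGGAAGT, which contains that core and is a form of the motif of the myeloid factor PU.1, stood at the start of Ctss and in 3.20% of all promoters. The Ctsz and Cst3 windows held none of the 4. GC content was 67.3% with 33 CpG in Ctsd and 44% with 5 CpG in Ctss, while the median promoter had 52.7% and 7 CpG. A match describes these letters only and is no evidence of binding.

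Levels of different genes can be compared only per length, so CPM was divided by the count-weighted length of each gene's transcripts in kilobases. In WT the order of mean CPM per kb was Cst3 (444), Ctsd (89.2), Ctsb (50.8), Ctss (40.8), Ctsl (32.1), Ctsa (16.5), Cstb (12.6), Ctsz (11.9), Ctsh (2.62) and Cst7 (0.0231). Cstb and Ctsz overlapped between the WT libraries, and the other neighbours did not. In APP, Ctss (88.0 CPM per kb) stood above Ctsb (62.4) and Ctsz (29.4) above Ctsa (23.3), each in both libraries. Cst7 reached 12.0 CPM per kb in APP, close to Cstb at 13.8 and above Ctsh at 5.36. The long Ctsb transcript of 4743 nucleotides, much of it outside the coding sequence, lowers the rank of Ctsb on this scale.

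The make-up of the summed level of these 7 proteases therefore differed between the groups. The 7 were selected on this comparison, so the rise of their sum and the shares are descriptions only. Other counted proteases, such as Lgmn, Ctso, Ctsf and Ctsc, are not in the sum. Summed over the 7 proteases, the level was 446 CPM per kb in APP-3 and 495 in APP-4, against 243 in WT-1 and 245 in WT-2, which is 1.93 times as high in APP. Ctsd made up 47.4% and 46.8% of that sum in the APP libraries and 37.1% and 36.1% in the WT libraries. Ctsb went from 20.6% and 21.1% in WT to 13.6% and 12.9% in APP, and Ctsl from 13% and 13.3% to 9.29% and 7.94%. The share of Ctss, 16.9% and 20.4% in APP, overlapped the WT shares of 16.1% and 17.4%. Shares in a sum are not independent of each other, so a larger Ctsd share lowers the others.

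**Figure D2:**
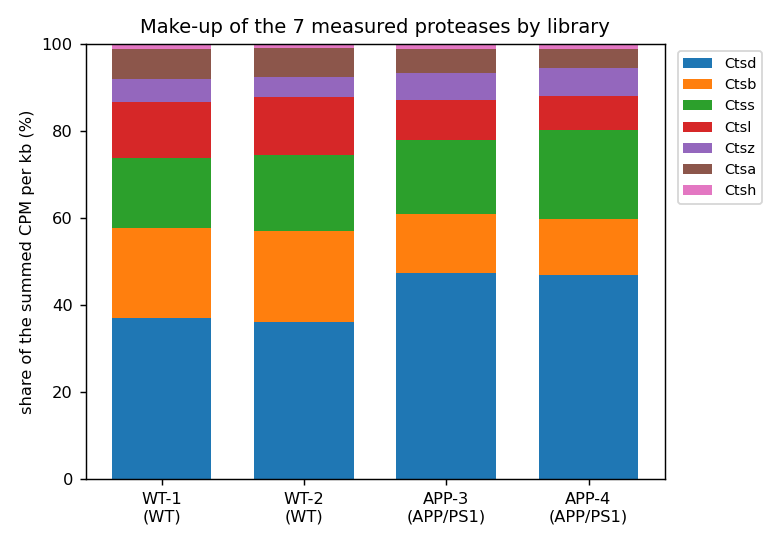
Share of each protease gene in the summed CPM per kb of the 7 proteases, in percent, with 1 stacked bar per library. The 7 genes were selected on the comparison of APP with WT. Ctsd takes 47.4% and 46.8% of the APP bars and 37.1% and 36.1% of the WT bars, and Ctsb and Ctsl take smaller shares in APP.

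The inhibitors were each set against the same sum, that of the 5 cysteine proteases among the 10 genes. An inhibitor need not block, or meet in the cell, every protease in this sum. Other counted cathepsins, such as Ctso and Ctsf, are not in it. The genes were selected on the comparison of APP with WT. The difference in their sum and in the ratios to it is therefore a description, and nothing further is read from it. The 5 cysteine proteases summed to 210.5 and 240.5 CPM per kb in APP-3 and APP-4 and 136 and 140.5 in WT-1 and WT-2, a ratio of means of 1.63. Cst3 amounted to 275% and 293% of that sum in APP and 312% and 330% in WT, so the groups did not overlap. As means these were 284 ± 12.7% and 321 ± 12.9% (SD, n = 2). This order depends on the scaling by length, and with raw counts the log2 ratio of APP to WT was 0.0078 in place of -0.18. Cstb amounted to 6.33% and 5.97% of the same sum in APP and 9.73% and 8.46% in WT. Cst7 amounted to 5.45% and 5.23% in APP-3 and APP-4, against 0.0340% in WT-1 and 0 counts in WT-2. In transcript amount Cst7 thus stood close to Cstb in APP, and neither came near Cst3. These are RNA levels, and the amounts of active enzyme and inhibitor were not measured.

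**Figure D3:**
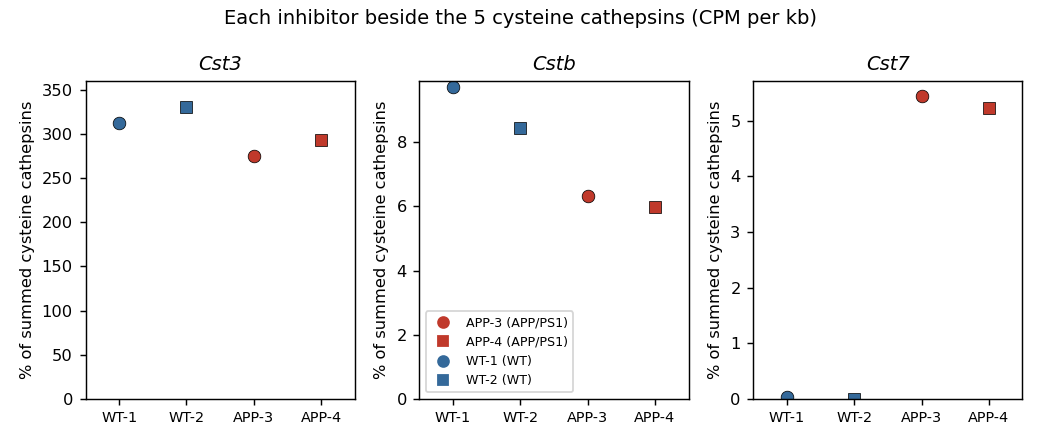
Level of Cst3, Cstb and Cst7 as a percentage of the summed CPM per kb of the 5 cysteine cathepsins, 1 point per library, on linear axes from 0. The APP points lie below the WT points for Cst3 and Cstb, and for Cst7 they stand at 5.45% and 5.23% against 0.0340% and 0% in WT. All genes shown or summed were selected on the comparison of APP with WT.

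Transcripts of the same gene were compared next, and those of Ctsh differed most in share between the groups. Ctsh-201, the protein-coding transcript, was counted 252 and 267 times in the APP libraries and 177 and 127 times in WT-1 and WT-2, giving log2 fold change 1.19 ± 0.15 (SE). Ctsh-203, which retains an intron, had 18 and 23 counts in APP and 32 and 28 in WT, giving log2 fold change -0.15 ± 0.35 (SE). The retained-intron transcript thus made up 6.67% and 7.93% of the Ctsh counts in APP and 15.3% and 18.1% in WT, on few counts. Of its 31-base words 47.5% also stand in Ctsh-201, so reads can be split between them.

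Ctsd-201 held between 91.2% and 92.2% of the Ctsd counts in every library. Gm49369-201, filed under Ctsd in the deposited table, had a log2 fold change of 1.32 and shares 74.0% of its words with Ctsd-201, so its counts are not independent of it. Summed without it, Ctsd had the same log2 fold change of 1.31. Ctsd-202 had a log2 fold change of 0.98. Ctss-201 and Ctss-202, which share 97.5% of the words of the latter, had log2 fold changes of 1.10 and 1.28. Cst3-201 held at least 99.7% of the Cst3 counts. Ctsa rested for at least 98.3% of its counts on a transcript that GENCODE M21 does not list, for which the length of Ctsa-202 (2534 nucleotides) was used.

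Markers of several glial types were also higher in APP. Over all features, 8964 of 18030 were higher and 0.854% were called higher. The 17 microglial markers were all counted, all 17 were higher, 10 were called, and none was at 0 in a library. Their summed level was 536 and 635 CPM in APP-3 and APP-4 and 325 and 328 in WT-1 and WT-2, with a median log2 fold change of 0.74. Of 9 markers of perivascular and infiltrating myeloid cells 8 were counted and 1, Lyz2, was called, and their sum was 31.3 and 32.2 CPM in APP against 15.9 and 14.2 in WT. Lyz2 accounts for that difference, and the other 7 summed to 10.9 and 9.98 CPM in APP and 10.3 and 9.93 in WT, with Mrc1, Lyve1 and Ly6c2 at log2 fold changes below 0. Of 9 astrocyte markers 8 were higher, and Gfap and Aqp4 were called. Their median log2 fold change was 0.22, with Gjb6 at -0.08. The list summed to between 4829 and 5254 CPM in APP and between 3956 and 4339 in WT. All 6 oligodendrocyte markers were higher and 1 was called, and their sum lay between 1548 and 1758 CPM in APP and between 1147 and 1270 in WT. The median log2 fold change was -0.07 over 5 endothelial markers and -0.11 over the 4 counted of 5 choroid plexus markers. The part of these cells in the levels of the cathepsins and cystatins was not tested. In bulk tissue a difference in the number of cells of a type and one in RNA per cell cannot be told apart.

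Scaled to the summed microglial markers of each library, the genes fell into groups on either side of 1. Per 100 CPM of markers, Ctsd had 73.9 and 68.5 CPM in APP-3 and APP-4 and 52.0 and 50.6 in WT-1 and WT-2, a ratio of means of 1.39. The ratio was 1.38 for Ctsz, 1.20 for Ctss and 1.15 for Ctsh. By the same scaling Ctsb had 53.7 and 47.8 CPM in APP against 72.8 and 74.6 in WT, a ratio of 0.689. It was 0.805 for Cst3, 0.797 for Ctsa, 0.708 for Ctsl and 0.617 for Cstb. Cst7 stood at 2.11 and 1.95 CPM per 100 CPM of markers in APP and at 0.0140 and 0 in WT. The groups did not overlap for any of the 10 genes, with 5 higher and 5 lower in APP. On this scale 88.2% of all features were lower in both APP libraries and 1.27% higher, since the marker sum itself separates the groups, and nothing is read from either order. Genes that are also expressed in neurons or astrocytes carry that RNA in the numerator, so these ratios are not levels per microglial cell.

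**Figure D4:**
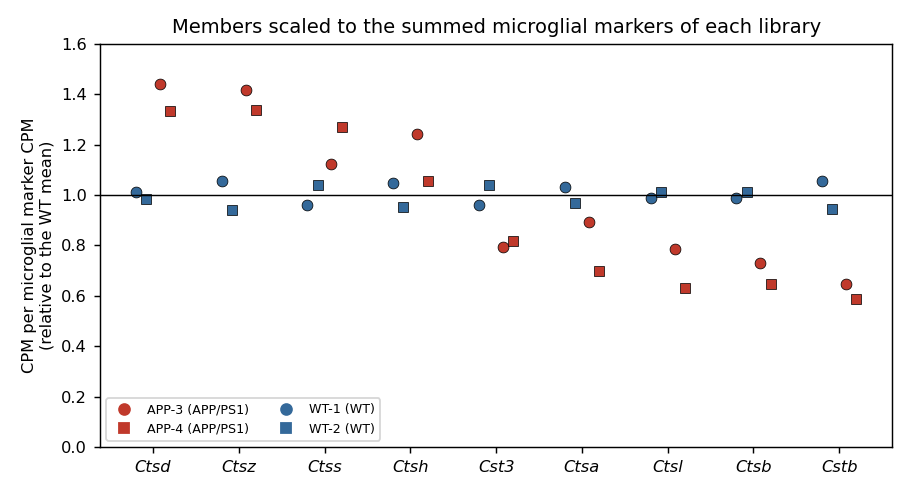
Level of each gene except Cst7, per CPM of the 17 summed microglial markers, as a multiple of the WT mean, 1 point per library. Ctsd, Ctsz, Ctss and Ctsh lie above 1 in APP (ratios of means from 1.15 to 1.39) and the other genes below 1 (0.617 to 0.805).

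The remaining cathepsins, legumain and other cystatins gave 0 calls among 9 counted of 37 genes, a number that the share of 0.854% of all features called higher would also give. Of the 9, 2 had an unadjusted p under 0.05 in edgeR's quasi-likelihood test, as did 2218 of all 18030 features. The number of calls was also 0 with DESeq2, edgeR's exact test and its likelihood ratio test. Their median log2 fold change was 0.17, against 0.78 for the 10 genes described here. Nothing is read from this difference, because the 10 genes were selected on the comparison of APP with WT. The list of other cathepsins and cystatins was also chosen with earlier results of these data known, so its p-values are given as descriptions. Lgmn, the legumain that cleaves and activates other lysosomal proteases, had 79.5 and 83.2 CPM in APP and 65.0 and 65.6 in WT, giving log2 fold change 0.32 (adjusted p = 0.0647, quasi-likelihood test of edgeR, Benjamini-Hochberg adjusted). Ctso had a log2 fold change of 0.18 (adjusted p = 0.424 from the same edgeR test) and Ctsf, a cysteine cathepsin, one of -0.08 (adjusted p = 0.752). Ctsc, which activates granule serine proteases and is named here because it was the other gene with a small unadjusted p, had 10.5 and 11.1 CPM in APP and 6.58 and 8.29 in WT, giving log2 fold change 0.54 (adjusted p = 0.163 from the same edgeR test).

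Most genes that sort, activate or control lysosomal proteases had small fold changes. This list was chosen with earlier results of these data known, so its calls and p-values are given as descriptions. All 18 were counted, 11 were higher, 2 were called, and the median log2 fold change was 0.08. Over all features, 8964 of 18030 were higher and 0.854% were called higher. Grn, which encodes progranulin, a secreted protein that is cut to granulins in the lysosome, had 21.7 and 27.6 CPM in APP-3 and APP-4 and 14.6 and 15.7 in WT-1 and WT-2. It rose with log2 fold change 0.71 ± 0.12 (SE, adjusted p = 0.0311, quasi-likelihood test of edgeR, Benjamini-Hochberg adjusted). Cebpa, a transcription factor of myeloid cells, had 7.96 and 7.78 CPM in APP and 4.62 and 4.60 in WT, giving log2 fold change 0.77 ± 0.14 (SE, adjusted p = 0.0380 from the same edgeR test). Grn lost its call without APP-4 and without WT-1, and Cebpa without WT-1 and without WT-2.

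The abundant carriers and partners had small fold changes. Psap, which encodes the precursor of the saposins and travels with progranulin, was the most abundant of the list and had between 856 and 890 CPM in every library. Sort1, the sorting receptor sortilin, had a log2 fold change of -0.20 (adjusted p = 0.303, edgeR's quasi-likelihood test) and Lrp1, an endocytic receptor, one of 0.11 (adjusted p = 0.576). The mannose 6-phosphate receptors M6pr and Igf2r, named here because they carry cathepsins and outside the rule for named genes, had log2 fold changes of 0.06 and 0.02. Tfeb, likewise named for its motif, had 1.41 and 1.52 CPM in APP and 1.84 and 2.23 in WT, giving log2 fold change -0.47 (adjusted p = 0.492 from the same edgeR test). Spi1, the gene of PU.1, went the other way, with log2 fold change 0.48 (adjusted p = 0.582 from the same edgeR test). Tfe3 and Mitf, transcription factors of the same list, had log2 fold changes of -0.05 and 0.16.

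**Figure D5:**
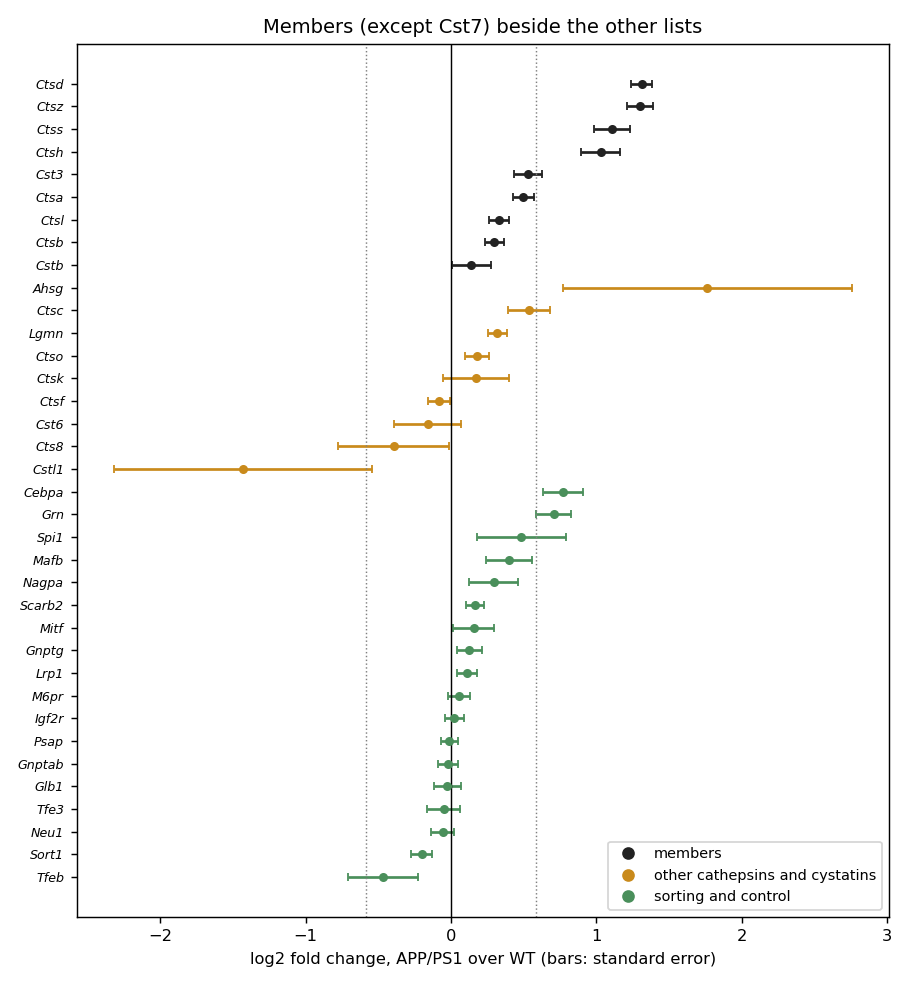
Log2 fold change of APP over WT with its standard error for the 9 genes other than Cst7 (black), the 9 counted genes of the other cathepsins and cystatins (orange) and the 18 genes that sort or control lysosomal proteases (green). Dotted lines mark a fold change of 1.5 in either direction, which Ctsd, Ctsz, Ctss and Ctsh pass, while the sorting genes centre near 0 with Grn and Cebpa past the line. Ahsg and Cstl1, with at most 14 counts in a library, lie past the lines with wide errors.

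Genes with the profile most like a given one over the 4 libraries were found by the distance between mean-centred log2 CPM values, among 14530 genes with a mean of at least 1 CPM. For Cst7 the nearest were the pseudogene Lamr1-ps1 (distance 0.87), Clec7a (1.41), which encodes the receptor Dectin-1, and Itgax (3.23), which encodes the integrin CD11c. Lamr1-ps1 was at 0 counts in both WT libraries. Clec7a had 0.114 and 0.113 CPM in WT-1 and WT-2 against 10.5 and 11.1 in APP, and Itgax 0.364 and 0.367 against 7.37 and 7.07. For Ctsd, the protease with the largest log2 fold change, the nearest were Psmb8 (0.08), a subunit of the immunoproteasome, Samsn1 (0.08), an adaptor protein of immune cells, and Ctsz (0.09). With 4 libraries, many genes that differ between the groups by the same factor have nearly the same profile.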

How the data were processed

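Whole transcriptome libraries of cortex from 2 APP and 2 WT mice were analysed. The authors aligned reads to the Ensembl mouse RNA database with FANSe2 after discarding pairs from ribosomal RNA, and deposited the raw read counts per transcript. The submitters' processing notes name CASAVA 1.8, edgeR and hg19, a human build, although the identifiers are mouse. The Ensembl release is not given in the sources used here. A further 4 columns of values per library and the authors' own log2 fold change, p-value and FDR columns were not used.

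Numbers in the headers tied each WT column to a mouse, while APP columns could be tied to the genotype alone. The 10 genes were matched by the file's symbols ignoring case, since 4 of 10 were spelled as listed. Counts of other transcripts were added up by their gene in GENCODE M21 (GRCm38), which lists 98.2% of the transcripts. No feature had fewer than 10 counts over the libraries.

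The main test was edgeR 4.0.16 (R 4.3.3) quasi-likelihood after TMM scaling, without covariates, adjusted by Benjamini-Hochberg over 18030 features. Log2 profiles had a prior count of 2. DESeq2 1.42.0, edgeR's other tests, other scalings, a stricter filter, other cut-offs, transcripts in place of genes and leaving out each library were tried. Tables were made in Python 3.11.15 with pandas 2.3.3, numpy 2.4.6 and matplotlib 3.10.9. Without molecular identifiers on the reads, the setting of 3 counts for Cst7 in WT covers counting error at most. The p-values rest on the spread between 2 libraries per group, moderated over all features.

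The members and lists were chosen with earlier results of these data known. Genes named are the 10, the called and the 3 most abundant genes of the lists of other cathepsins and cystatins and of sorting and control genes, and the 3 nearest profiles of Cst7 and of the protease with the largest log2 fold change. Ctsc, M6pr, Igf2r, Tfeb, Spi1, Tfe3, Mitf, Ahsg and Cstl1 were added after their values were seen. So were the cell type markers Lyz2, Mrc1, Lyve1, Ly6c2, Gfap, Aqp4 and Gjb6.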

Additional observations from a re-analysis of the deposited data

How the results depend on the processing

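Log2 fold changes of the 10 genes were recomputed in 109 cases, and 107 kept their direction and their side of the call rule. Ctsh lost its call without WT-2 (log2 fold change 0.98), Cst3 gained one without APP-3 (0.67), and 0 changed sign. With transcripts in place of gene sums, 303 of the 37539 deposited transcripts were called. Called features numbered 161 of 18030, and 90 with a fold of at least 2. They numbered 351 with edgeR's exact test and 388 with its likelihood ratio test. Leaving out 1 library gave 130 (without WT-1) to 575 (without APP-3), with 135 without WT-2 and 444 without APP-4, and the lone library is then assumed to vary like the other group. Of the 10 genes 5 were called, with 8 of their 19 transcripts called and a range of 4 to 6 on leaving out a library. The sorting and control genes went from 2 calls to 0 with a fold of at least 2 and 0 to 2 on leaving out a library.

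The log2 ratio of Cst3 to the cysteine proteases was -0.18 and turned to 0.0078 with raw counts, a scale without the division by length. It was -0.79 with Ctsd in their place, and -0.22 to -0.13 without 1 library. That of Cstb was -0.56, with -0.38 on raw counts and -0.66 to -0.46 without 1 library. Cst7 in APP was 5.34% of the cysteine proteases and 2.17% on raw counts, with 5.23% to 5.45% without 1 library. Gene sums from GENCODE M21 alone and Ctsd in place of the cysteine proteases were added after seeing the data. No paired analysis was run, because no pairing of APP with WT mice is given.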

Other observations

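Without the symbols of the deposited table, Ctsa would keep 98 counts over the 4 libraries (23, 29, 29 and 17 in APP-3, APP-4, WT-1 and WT-2) from 3 transcripts in GENCODE M21, and its log2 fold change would be 0.59. The table lists Ctsd-201 as a target of nonsense-mediated decay, while GENCODE M21 lists it as protein coding.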
